A study of Mus musculus with 2 samples.

Results

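The genes described here encode the nuclear-encoded subunits of the mitochondrial respiratory chain and ATP synthase. They were taken by symbol, as genes with a protein-coding transcript whose names begin with Nduf followed by a, b, c, s or v and a digit (complex I), are Sdha to Sdhd (complex II), begin with Uqcr or are Cyc1 (complex III), begin with Cox4 to Cox8 (complex IV), or begin with Atp5 (complex V). This gave 86 of the 55536 genes in the deposited tables, all annotated as protein-coding, against 22028 protein-coding genes in all. They carry 85 symbols, because Atp5o has 2 entries, and split into 37 genes of complex I, 4 of complex II, 9 of complex III, 18 of complex IV and 18 of complex V. Choosing by symbol places Ndufa4 with complex I, although its protein is now described as a subunit of complex IV.

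The study sequenced total RNA, depleted of ribosomal RNA, from the nuclear fraction of bone-marrow-derived macrophages of C57BL/6J mice, a fraction that the labels also call nucleoplasmic. Both libraries came from 1 condition. The cells were exposed to Lipid A (100 ng/ml) for 12 h, kept without it for 12 h, and exposed again at 100 ng/ml for 10 min before collection. Lipid A anchors lipopolysaccharide in the bacterial outer membrane and is sensed by TLR4. The labels number the libraries as biological replicates 1 and 2 and give them 1 donor identifier, with starting quantities of 1 µg for replicate 1 and 500 ng for replicate 2. They do not say whether the replicates were separate animals or cultures, and sex and age were not collected, so the spread between replicates may be partly technical. Untreated cells and other fractions were not analysed here, so no change with Lipid A can be read from these values.

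The respiratory chain passes electrons from NADH through complex I, or from succinate through complex II, to complex III, cytochrome c and complex IV, and complex V uses the proton gradient to make ATP. All complexes but the second also contain subunits encoded in mitochondrial DNA, so their assembly needs the output of both genomes. In macrophages activated through TLR4, respiration is known to give way to glycolysis, and succinate oxidation by complex II has been tied to the inflammatory response.

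Promoters of respiratory subunit genes are known for binding sites of the factors NRF1, GABP (an ETS factor also called NRF2) and YY1. Windows from 250 bases before to 50 bases after the RefSeq start (assembly GRCm38.p6) were available for 66 of the 85 symbols. They were searched on both strands for the cores GCGCNTGCG (NRF1), CCGGAAG (ETS) and AAGATGGCG (YY1), none of which contains another. Shown first are the 120 bases before the start of 4 detected genes whose windows hold such cores and of Cox6b2, the paralog of Cox6b1 that was not detected. Each is printed 5′ to 3′ on the gene's own strand, ending at the base before the start, with matches on either strand in capitals.
Sdha: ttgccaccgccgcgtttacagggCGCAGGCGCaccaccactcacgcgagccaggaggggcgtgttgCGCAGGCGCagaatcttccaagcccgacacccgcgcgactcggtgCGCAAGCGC
Sdhd: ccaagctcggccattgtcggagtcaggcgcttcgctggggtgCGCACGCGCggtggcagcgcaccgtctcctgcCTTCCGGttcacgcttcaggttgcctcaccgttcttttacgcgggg
Cox6a1: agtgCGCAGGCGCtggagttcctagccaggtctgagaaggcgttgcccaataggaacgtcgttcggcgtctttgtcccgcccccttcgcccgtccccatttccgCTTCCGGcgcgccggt
Cox6b1: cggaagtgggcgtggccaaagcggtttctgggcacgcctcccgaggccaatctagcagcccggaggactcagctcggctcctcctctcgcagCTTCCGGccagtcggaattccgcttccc
Cox6b2: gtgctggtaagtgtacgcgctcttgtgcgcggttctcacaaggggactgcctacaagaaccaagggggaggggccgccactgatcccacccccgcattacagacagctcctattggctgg
The sequences lie on GRCm38.p6 at chr13:74350241-74350360 for Sdha, chr9:50603850-50603969 for Sdhd, chr5:115348959-115349078 for Cox6a1, chr7:30626115-30626234 for Cox6b1 and chr7:4753095-4753214 for Cox6b2, all on the minus strand.

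The Sdha window held 3 NRF1 cores, beginning at positions −97, −54 and −9 from the start. Sdhd held an NRF1 core at −78 and an ETS core at −46. Cox6a1 held an NRF1 core at −116 and an ETS core at −16, and upstream of the printed stretch 2 overlapping NRF1 matches, 1 on each strand, at −162 and −161. Cox6b1 held an ETS core at −28, and none of the 3 cores was found in the Cox6b2 window. Another pair did not differ in this way, since neither Cox7a2, detected, nor Cox7a1, not detected, held any of the 3 cores. Positions count from RefSeq starts. The starts of Sdha (74350280) and Cox6a1 (115348981) in the GENCODE annotation lie inside their printed stretches. The Sdha core at −9 and the Cox6a1 ETS core at −16 lie downstream of these GENCODE starts. All cores given are matches of letters, not measured binding sites.

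Over the 62 detected subunit genes with a window, the NRF1 core was present in 23 (37.1%), against 17.3% of 7569 detected protein-coding genes and 7.12% of all 27025 genes with a window. The YY1 core was present in 7 (11.3%), against 4.35% of detected protein-coding genes and 1.64% of all genes. With 1 more base required, a C after the NRF1 core and a G after the YY1 core, the shares were 27.4% and 8.06% of subunit windows, against 13.3% and 2.97% of detected protein-coding windows. The ETS core was in 16 subunit windows (25.8%), close to the 23.6% of detected protein-coding genes, and in 9.93% of all windows. At least 1 of the 3 cores stood in 38 subunit windows (61.3%), against 39.2% of detected protein-coding genes and 16.6% of all genes. The GC box GGGCGG went the other way, with 24 subunit windows (38.7%) against 69.6% of detected protein-coding windows and 38.2% of all windows. The subunit windows also held fewer CpG dinucleotides, at a median of 19 against 23 for detected protein-coding genes. The letters TATAAA were in 5 subunit windows (8.06%), against 8.28% of detected protein-coding windows. Of the subunit genes that were not detected, 4 had a window, and none of these 4 held any of the 3 cores.

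The levels of these genes are given in TPM, which divides reads by transcript length and scales each library to the same total. Detection required at least 1 TPM together with at least 10 expected counts in each library. Of the 86 subunit genes 77 were detected (89.5%), against 42.9% of all protein-coding genes. Their median was 9.45 TPM in replicate 1 and 8.91 TPM in replicate 2 (9.18 ± 0.378, SD, n = 2), against 0.3 and 0.38 TPM for all protein-coding genes. Among detected genes alone the medians were 9.92 and 10.4 TPM for the subunit genes, against 7.3 and 8.56 TPM for protein-coding genes. The detected subunit genes thus lay somewhat above the median of expressed protein-coding genes in each library. In both libraries 47 members lay between 5 and 20 TPM, and 13 lay above 20 TPM. Together the 86 genes held 0.126% of the gene counts of replicate 1 and 0.123% of those of replicate 2. Total gene counts were 24444219 and 18051097, and 17 detected members rested on a mean of fewer than 100 counts. The cells carried the labelled identity, with 8 of 8 macrophage markers detected and none of 24 markers of T and NK, B, neutrophil, fibroblast, muscle and erythroid cells. In such bulk RNA, fewer cells that express a gene and less RNA per cell cannot be told apart.

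**Figure D1:**
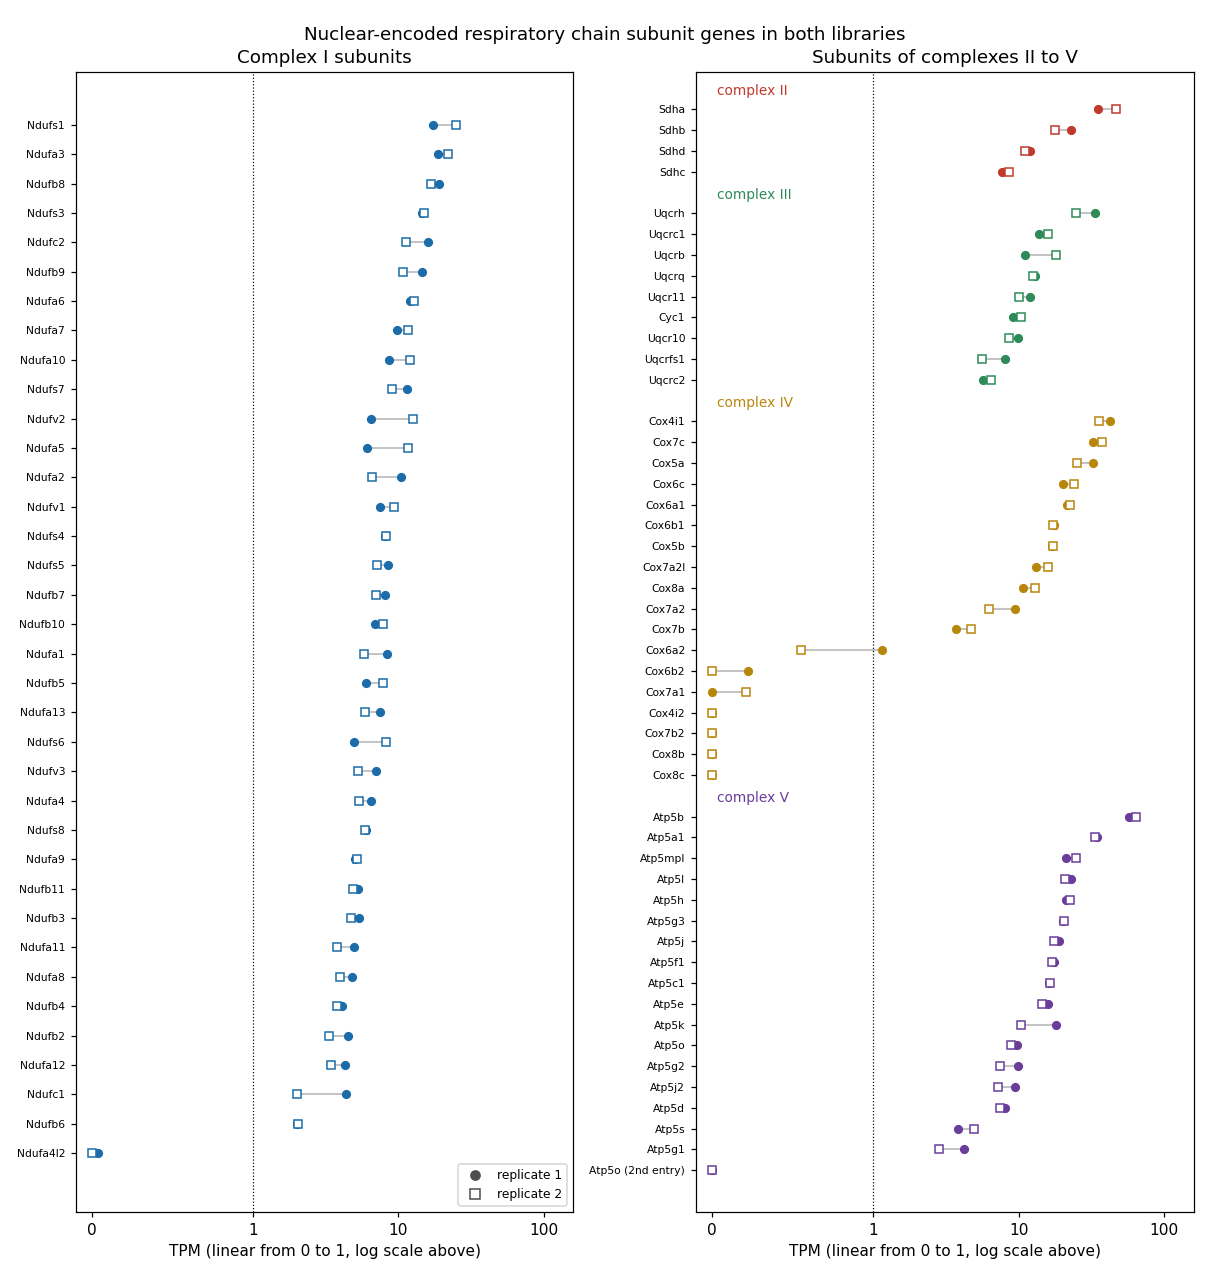
TPM of 85 of the 86 subunit genes in replicate 1 (filled circles) and replicate 2 (open squares), ordered by mean within each complex, on an axis that is linear from 0 to 1 and logarithmic above; the dotted line marks 1 TPM. The detected genes lie to the right of the line in both libraries, while the rarely used isoforms of complex IV lie at or near 0.

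Levels were not equal between complexes. The median over the 4 complex II genes was 17.5 TPM in replicate 1 and 14.5 TPM in replicate 2, and over the 18 complex V genes 16.9 and 15.4 TPM. Complex III genes had medians of 11.04 and 10.3 TPM. Complex IV genes had medians of 10.06 and 9.64 TPM over all 18, and 17.5 and 17.3 TPM over the 11 common isoforms. Complex I genes were lowest, at 7.05 and 7.09 TPM over 37 genes. Complex I stood lowest in both libraries, and the order of the complexes is a description over genes of very unequal number. Mean levels among the detected genes spanned 10.5-fold within complex I, 5.09-fold in complex II and 4.78-fold in complex III. They spanned 9.25-fold in complex IV and 17.2-fold in complex V. Proteins of a complex are used in fixed ratios, but these spans compare genes, and some subunits have several. The complex V span runs from Atp5b, at 60.6 TPM by mean, to Atp5g1 at 3.53 TPM, 1 of 3 genes of the same subunit. The replicates ranked the members alike, with Pearson r = 0.972 and Spearman rho = 0.943 between their log2(TPM + 1) values over 86 genes, which share libraries, lengths and annotation.

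In complex I the core subunits, which carry the flavin and iron–sulfur centres of electron transfer and are conserved from bacteria, had a higher median than the accessory subunits that surround them, with overlapping ranges. The 7 nuclear-encoded core genes, all detected, had medians of 11.5 TPM in replicate 1 and 12.7 TPM in replicate 2. The 29 accessory genes, all detected, had medians of 6.87 and 6.57 TPM, and the 10 Ndufb genes among them, whose proteins sit in the membrane arm, 5.68 and 5.9 TPM.

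Ndufs1, an iron–sulfur core subunit of the NADH-oxidising arm (chromosome 1, 63143596 to 63176833), was the highest gene of complex I by mean, at 17.4 and 25 TPM in replicates 1 and 2. Accessory genes stood near it, with Ndufa3 at 18.8 and 22.0 TPM and Ndufb8, a membrane-arm subunit, at 19.1 and 16.7 TPM. These 3 exchanged ranks between the libraries and cannot be ordered beyond their spread. The lowest detected genes of the complex were Ndufb6, at 2.00 and 2.03 TPM on 35 and 25 counts, and Ndufc1, at 4.34 and 1.99 TPM on 50 and 33 counts, both accessory membrane-arm subunits.

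Complex II oxidises succinate and is the only complex encoded wholly in the nucleus. Sdha, the flavoprotein that binds succinate (chromosome 13, 74322254 to 74350280), had 35.3 and 47.0 TPM on 2506 and 2367 counts. Sdhb, the iron–sulfur subunit, had 23.0 and 17.9 TPM. The membrane anchors were lower, with Sdhd at 12.04 and 11.06 TPM and Sdhc at 7.63 and 8.55 TPM. The order Sdha, Sdhb, Sdhd, Sdhc held in each library of the gene tables, while in a second deposited transcript table summed per gene, called the other quantification here, Sdhc, at 4.66 and 6.53 TPM, lay above Sdhd, at 4.33 and 5.81 TPM.

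Complex III hands electrons from ubiquinol to cytochrome c. Uqcrh, the hinge protein beside cytochrome c1, led it at 33.4 and 24.8 TPM. Uqcrc1, a core protein of the matrix side, had 13.9 and 15.9 TPM, while its partner Uqcrc2 was the lowest gene of the complex by mean in the gene tables, at 5.69 and 6.49 TPM, though not in the other quantification, where Uqcrfs1 was lowest at 2.89 TPM by mean. Uqcrfs1, the Rieske iron–sulfur protein itself, had 8.06 and 5.62 TPM. Uqcrb, a small subunit near the ubiquinone site, had 11.04 and 18.1 TPM, and Uqcrq, another small subunit, 13.0 and 12.5 TPM. Cyc1, cytochrome c1, had 9.18 and 10.3 TPM.

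Complex IV reduces oxygen. Cox4i1, its largest nuclear-encoded subunit and a site of regulation by ATP (chromosome 8, 120668222 to 120674207), had 42.3 and 35.7 TPM. Cox7c, a small membrane subunit, had 32.7 and 37.4 TPM, and Cox5a, on the matrix side, 32.6 and 25.2 TPM. Cox6c had 20.3 and 24.1 TPM. The lowest detected genes were Cox7a2, at 9.4 and 6.23 TPM, and Cox7b, at 3.72 and 4.71 TPM.

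Complex V held the highest gene of all 86 in the gene tables, Atp5b, which encodes the catalytic beta subunit of the F1 head (chromosome 10, 128083273 to 128090391), at 57.2 and 64.0 TPM on 2729 and 1973 counts. In the other quantification Sdha was higher by mean, at 30.7 TPM against 28.5 TPM for Atp5b. Atp5a1, the alpha subunit that alternates with beta in the same head in equal number, had 34.8 and 33.5 TPM. Beta exceeded alpha in gene TPM, but the coding transcripts of both were nearly equal and changed order between the libraries. They summed to 32.32 and 31.94 TPM for Atp5b and 32.26 and 32.08 TPM for Atp5a1. Atp5mpl, a small membrane proteolipid, had 21.1 and 24.97 TPM, and Atp5l, subunit g of the membrane part, 23.1 and 20.8 TPM. The lowest detected genes were Atp5g1, at 4.23 and 2.83 TPM, and Atp5s, named coupling factor B, at 3.84 and 4.91 TPM. By role, the F1 genes had medians of 16.2 and 16.3 TPM, the peripheral stalk genes 17.6 and 17.1 TPM, the other membrane subunits 19.6 and 15.6 TPM, and the genes of the c-ring, the rotor that protons turn, 9.92 and 7.47 TPM.

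The 9 entries of 86 that were not detected were 8 alternative isoforms and 1 duplicate annotation, against 57.1% of protein-coding genes not detected. Several subunits have a widely expressed gene and a paralog known for use in particular tissues. None of the 7 alternative isoforms of complex IV passed the threshold, while all 11 common ones did. Cox4i2, a lung isoform linked to hypoxia, Cox7b2 and Cox8c, known from testis, and Cox8b, known from heart and skeletal muscle, had 0 counts in both libraries. A count of 0 allows up to 3 counts, which is 0.123 CPM (counts scaled to the library total) in replicate 1 and 0.166 in replicate 2. Cox6b2, known from testis, had 2 and 0 counts, and Cox7a1, a heart and skeletal muscle isoform, had 0 and 1. Ndufa4l2, a hypoxia-inducible paralog of Ndufa4, had 1 and 0 counts.

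Cox6a2, the heart and skeletal muscle isoform of subunit 6a, was the exception in this group, at 1.14 and 0.55 TPM on 21 and 7 counts. Its exons overlap those of Itgad, a leukocyte integrin gene on the opposite strand, with which it shares 6.15% of its 31-base words. Strandedness is not given in the sources used here, so reads from the shared words cannot be told apart. The origin of the Cox6a2 counts was not tested. The muscle markers Acta1, Myh7, Ckm and Tnnt2 were at or near 0. The second Atp5o entry, an annotation that spans the neighbouring gene Donson and shares 94.0% of its words with other genes, had 0 counts.

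**Figure D2:**
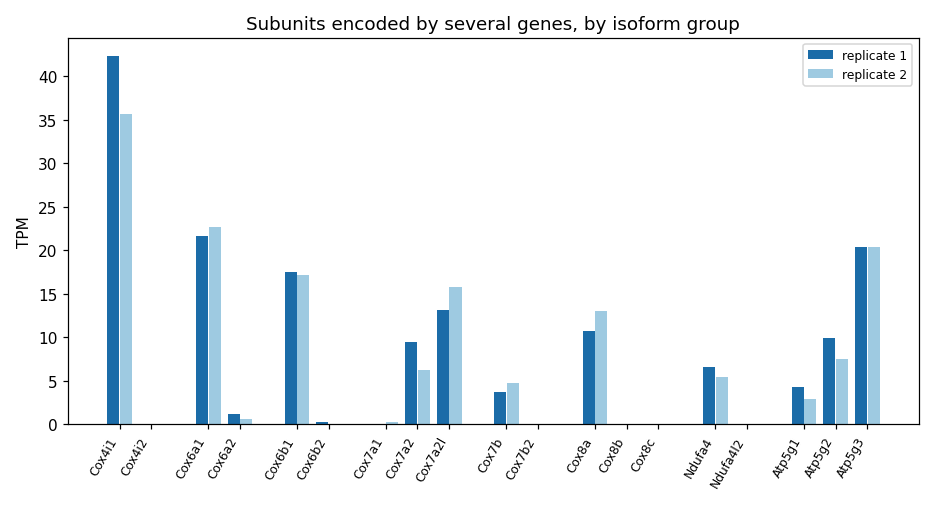
TPM of subunits that several genes encode, grouped by subunit, with replicate 1 in dark and replicate 2 in light bars. Cox4i1, Cox6a1, Cox6b1, Cox7b, Cox8a and Ndufa4 carry nearly all of their groups, while Cox7a2 and Cox7a2l, and the 3 Atp5g genes, share theirs.

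In the groups with a common and an alternative gene, the common gene held nearly all of the summed TPM. Cox6a1, at 21.6 and 22.6 TPM, left 5.01% of its pair in replicate 1 and 2.37% in replicate 2 to Cox6a2, and Cox6b1, at 17.5 and 17.1 TPM, held 98.8% and 100% of its pair. Cox4i1, at 42.3 and 35.7 TPM, Cox7b and Cox8a, at 10.7 and 13.04 TPM, made up 100% of their groups in both libraries. Ndufa4, at 6.52 and 5.36 TPM, made up 99.4% and 100% of its pair.

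The subunit 7a group was divided between Cox7a2l and Cox7a2. Cox7a2l, whose protein takes part in joining complexes III and IV, stood at 13.07 and 15.8 TPM, or 58.2% and 71.1% of the group. Cox7a2, the common liver-type subunit of the complex itself, held 41.8% and 28.0%. Its order against Cox7a2l depended on the quantification, because the second deposited quantification gave Cox7a2 57.8% and 48.4% and Cox7a2l 37.9% and 43.8%.

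The 3 Atp5g genes encode the same mature c subunit behind different import sequences. Atp5g3 led with 20.3 and 20.4 TPM, or 59.0% and 66.5% of the group. Atp5g2 followed with 9.92 and 7.47 TPM (28.8% and 24.3%) and Atp5g1 with 4.23 and 2.83 TPM (12.3% and 9.22%). This order held in each library of both quantifications, with Atp5g3 at 67.1% and 69.7% in the other one.

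Transcript annotation showed how far these nuclear RNAs were assigned to forms other than the coding one. Of the 77 detected genes, 68 had a protein-coding transcript as their most abundant form by the mean of both libraries. In single libraries the leading form was protein-coding for 66 genes in each, and for 62 in both. Leading forms were counted for the members only, so no share of all protein-coding genes can be set beside these counts. The protein-coding share of a member's TPM had a median of 85.8% in replicate 1 and 80.0% in replicate 2, against 75.9% and 75.6% over all protein-coding genes with at least 1 TPM in both libraries. For 46 members with at least 1 TPM in both libraries the annotation holds both a retained-intron and a coding transcript. Their retained-intron share had a median of 20.6% and 23.1%, ranging over members from 2.64% to 69.7% as means of both libraries. The share was 26.4% and 27.1% for protein-coding genes. It reached 10% in 37 of the 46 members (80.4%), against 84.1% of 5973 protein-coding genes, so retained introns were no more frequent among the subunit genes than in the background. Such shares are estimates from reads that overlapping transcripts have in common.

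The members ranged widely around this median. Atp5j, coupling factor F6 of the peripheral stalk, had 68.1% and 71.3% of its TPM on retained-intron forms. Its exons overlap exons of Gabpa, the DNA-binding subunit of GABP, on the opposite strand. The membrane-arm genes Ndufb4 (68.3% and 65.7%) and Ndufb10 (56.2% and 66.1%) and the accessory gene Ndufa6 (55.1% and 64.2%) followed. Ndufa10, an accessory subunit, had 47.6% and 59.7%, and Ndufs1 46.2% and 53.2%. For Atp5j, Ndufb4, Ndufb10, Ndufa6 and Ndufa10, coding forms held under 50% of the TPM in each library. At the other end, Cox6a1 had 2.64% as the mean of both libraries.

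Among the 9 genes led by another form on average, Ndufa3 had a transcript annotated for nonsense-mediated decay at 54.9% and 38.9% of its TPM, but in replicate 2 a coding form led at 55.1%. Atp5f1, subunit b of the peripheral stalk, was led by such a transcript in both libraries, at 38.7% and 55.1%. Ndufa5, an accessory subunit of the peripheral arm, was assigned differently in the libraries, with a processed transcript at 77.2% in replicate 1 and 22.7% in replicate 2 and a retained-intron form at 14.1% and 73.3%. It rested on 65 and 76 counts. Ndufs7, an iron–sulfur core subunit on 241 and 125 counts, differed more but is not among the 9, since a coding form led on average. Its main coding transcript was at 82.7% in replicate 1 and 0% in replicate 2, and a processed transcript at 0% and 75.3%. The remaining 6 of the 9 (Ndufa6, Ndufs4, Ndufb10, Ndufb4, Cyc1 and Atp5j) were led by a retained-intron form on average, and all but Ndufb10 in each library.

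**Figure D3:**
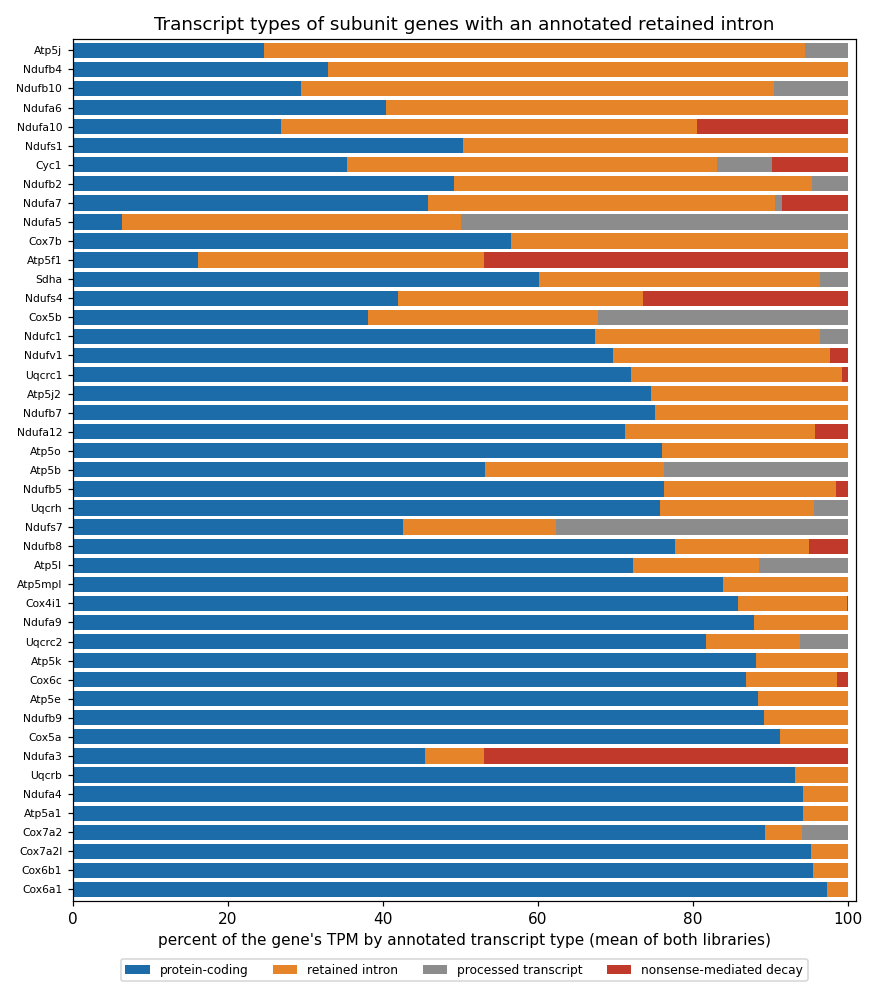
Percent of each gene's TPM by annotated transcript type, as the mean of both libraries, ordered by retained-intron share from the top. Shown are 45 of the 46 subunit genes with an annotated retained intron and at least 1 TPM in both libraries. The orange part falls from Atp5j at 69.7% to Cox6a1 at 2.64%.

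With 1 group, the comparison the files allow is between its replicates, as a log2 ratio of TMM-normalised counts with replicate 2 on top, for the 78 members that averaged 10 counts or more. Most members lay lower in replicate 2. The ratio was below 0 for 64 members (82.1%), against 49.5% of 11751 protein-coding genes, and above 0 for 14. The median was −0.31, against 0.01 for protein-coding genes. Protein-coding genes of like effective length, from the 10th to the 90th percentile of the members, also lay lower in replicate 2. Of 2376 such genes, members included, 1542 lay below 0 and 834 above, with a median of −0.16. Summed over the 78 members, 22161 counts in replicate 2 stood against 30803 in replicate 1, a log2 ratio of −0.20 with a 95% interval of −0.23 to −0.18 that covers counting error only. This difference compares 2 libraries, has no replicate check and allows no test.

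The median ratio was below 0 in every complex, at −0.29 in complex I, −0.20 in complex II and −0.43 in complex III. It was −0.21 in complex IV and −0.30 in complex V. Complex II has 4 genes, of which 1 lay above 0, and its summed share of gene counts was 0.0176% in replicate 1 and 0.0195% in replicate 2. By counting error alone the 95% interval lay below 0 for 38 members, above 0 for 6 and across 0 for 34. Such intervals were not counted over all protein-coding genes, so these numbers do not set the members apart. More than 2-fold lower were 2 members (2.56%), against 4.07% of protein-coding genes, and more than 2-fold higher were 0, against 2.14%. Atp5k, subunit e of the membrane part, had 47 counts in replicate 2 and 134 in replicate 1, a ratio of −1.23 (−1.75 to −0.75). Cox6a2 had 7 counts in replicate 2 and 21 in replicate 1, a ratio of −1.26 (−2.79 to −0.02). Neither passed 2-fold as a ratio of TPM with 0.5 added to each TPM. Without that addition Cox6a2, at 1.14 TPM in replicate 1 and 0.55 TPM in replicate 2, lay just past 2-fold.

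The members with a ratio above 0 were few and mixed in role. Ndufa5 had 76 counts in replicate 2 and 65 in replicate 1 (ratio 0.50, 0.00 to 1.00), and Uqcrb 158 in replicate 2 and 141 in replicate 1 (0.44, 0.10 to 0.78). For Atp5s the counts were 143 in replicate 2 and 129 in replicate 1 (0.42, 0.07 to 0.78), and for the core subunit Ndufv2 291 in replicate 2 and 277 in replicate 1 (0.34, 0.10 to 0.59). The interval given after each ratio is its 95% counting interval. With far more counts, Ndufs1 had a ratio of 0.22 (0.11 to 0.34) and Sdha of 0.19 (0.11 to 0.27). The lowest ratios short of 2-fold were those of the accessory subunits Ndufc2 (−0.94, −1.26 to −0.63) and Ndufa2 (−0.92, −1.37 to −0.49). Core genes of complex I had a median of 0.00, against −0.34 for its accessory genes. The core genes were also longer, at a median effective length of 951 bases against 464, so role and length cannot be told apart here.

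Gene length moved with this ratio. The members are short, with a median effective length of 518 bases against 1874 for protein-coding genes. In the shortest of 10 equal classes of protein-coding genes, up to 896 bases, the median ratio was −0.41 for 54 members against −0.25 for 1176 protein-coding genes. In the next class it was −0.19 for 13 members against −0.10, and in the third −0.20 for 7 members against −0.02. In the fourth, which holds Sdha and Ndufs1, it was 0.19 for 3 members against −0.03. Over the 78 members the ratio and log2 effective length had r = 0.25 and rho = 0.23, a description over genes that share both libraries. The part of length in the result was not tested. As a ratio of TPM, with 0.5 added to each TPM, the median was −0.05, against 0.20 for protein-coding genes. On this scale 35 members lay above 0 and 43 below. Relative to protein-coding genes the members thus lay lower on both scales, by 0.32 with TMM factors and by 0.25 in TPM.

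**Figure D4:**
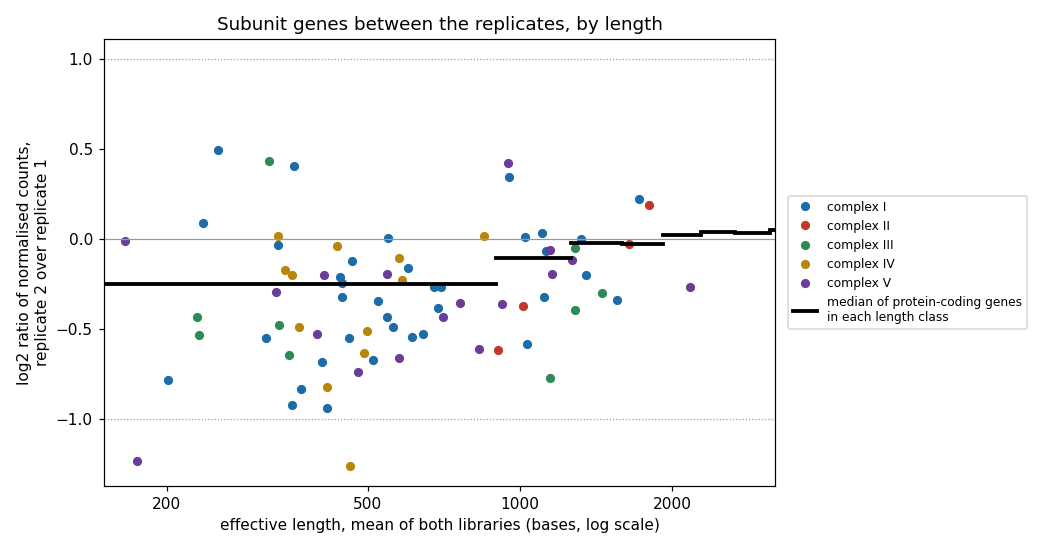
Log2 ratio of TMM-normalised counts in replicate 2 over those in replicate 1 against effective length in bases (log axis) for 78 subunit genes, coloured by complex; black lines mark the median of protein-coding genes in each length class and dotted lines 2-fold. Most points lie below 0, and 54 of them fall in the shortest class.

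Many subunit genes have processed pseudogenes, copies that can draw reads of the parent gene. Of the 86 members, 46 shared at least 1 word of 31 bases with an annotated pseudogene, 35 shared at least 10% of their words with another gene, and 26 shared none. Atp5l shared 85.4% of its words, Atp5o 59.5%, Uqcrb 58.2%, Ndufs3 55.0%, Cox5a 47.2%, Atp5h 46.9% and Atp5f1 45.9%. Levels of these genes are uncertain, since the counting had to divide such reads. Exons of 30 members also overlap exons of another gene, 26 of them on the opposite strand. Shared words and overlaps were counted for the members only, so no share of all protein-coding genes can be set beside them.

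The second deposited quantification, which the deposited file descriptions derive from read files, gave another estimate of each level. The median log2 ratio of its CPM over those of the gene tables was 0.06 for members and −0.04 for protein-coding genes. More than 2-fold higher was 1 member (1.28%), against 6.29% of protein-coding genes, and more than 2-fold lower were 0, against 0.247%. The exception was Ndufs8, an iron–sulfur core subunit near the ubiquinone site, with 691 and 557 counts in replicates 1 and 2 in the other quantification and 166 and 114 in the gene tables, a log2 ratio of 1.58. Ndufs8 shares no 31-base word with another gene, and the cause was not tested. Atp5g2, with 136 and 93 counts in the other quantification and 194 and 96 in the gene tables, had the lowest ratio, −0.86. It shares 40.2% of its words, mostly with Gm10175. The other large differences were those of Ndufc1 (0.79), Ndufv3 (0.76), Cox8a (0.68) and Atp5g1 (0.67). Cox7a1 had 18 and 30 counts in the other quantification and 0 and 1 in the gene tables, so its place near 0 depends on the quantification.

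**Figure D5:**
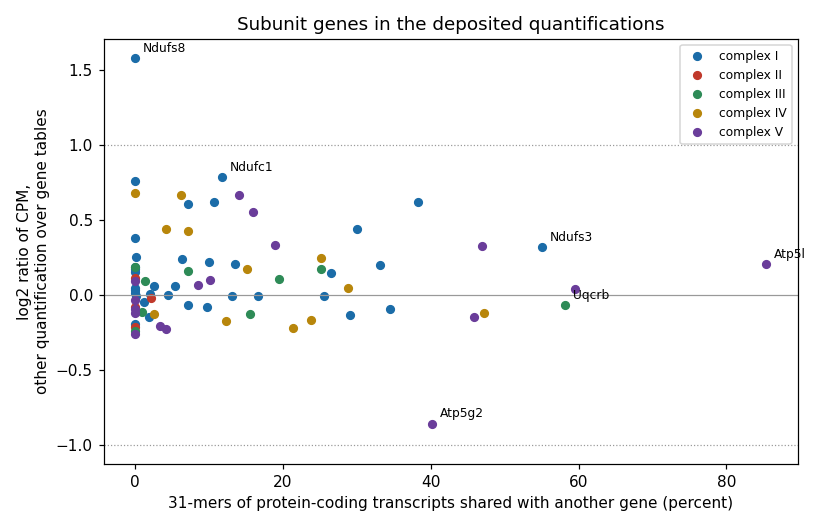
Log2 ratio of CPM in the other quantification over the gene tables, against the percent of 31-base words shared with other genes, for 78 subunit genes coloured by complex. Ndufs8 stands alone above 2-fold at 1.58 with no shared words, and Atp5g2 lies lowest at −0.86 with 40.2%.

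Position in the genome was a further feature that the choice by symbol did not use. The start of 22 members (25.6%) lay within 1 kb of the start of a gene on the other strand that points away, against 10.8% of all protein-coding genes. With a protein-coding partner there were 19 (22.1%), against 6.77%. All 22 were detected, and among detected members the shares were 28.6% and 24.7% of 77, against 17.3% and 11.5% of detected protein-coding genes. Genes that share a start region this way are said to be head to head. Distances within pairs use GENCODE starts, whereas the promoter windows use RefSeq starts.

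The closest such pair was Ndufa7 and Rps28, a ribosomal protein gene 10 bases away, with 9.78 and 11.7 TPM for Ndufa7 and 56.0 and 62.3 TPM for Rps28. Ndufb9 lay 18 bases from Tatdn1, a gene of a putative deoxyribonuclease, at 14.5 and 10.7 TPM against 8.2 and 9.87 TPM. Sdha lay 29 bases from Ccdc127, at 35.3 and 47.0 TPM against 4.76 and 7.66 TPM, and the promoter stretch printed for Sdha includes the annotated start of this neighbour. Sdhd lay 98 bases from Timm8b, a chaperone of mitochondrial protein import, at 12.04 and 11.06 TPM against 7.59 and 10.8 TPM, and its printed stretch likewise includes the Timm8b start. Partners were not always expressed with the subunit gene. Ndufa8 stood at 4.77 and 3.94 TPM while Morn5, 52 bases away, was at 0.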

How the data were processed

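Nuclear-fraction total RNA was measured in 2 libraries of 1 group. The authors deposited per gene an expected count (estimated reads, not necessarily whole) and a TPM, and per transcript the percent of the gene's TPM, per the file headers. A second deposited transcript table gives estimated counts and TPM, summed here per gene as the other quantification. Per the deposited file descriptions the assembly is mm10 with GENCODE M21. The quantifier, the aligner, their versions and strandedness are not stated in these sources. Entries that name no gene held 1.06% of the counts of replicate 1 and 0.245% of those of replicate 2, and were left out.

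Expected counts were rounded, TMM factors (0.945 for replicate 1 and 1.06 for replicate 2) came from edgeR 4.0.16 in R 4.3.3, and 0.5 was added to each normalised count. Ratios of TPM likewise had 0.5 added to each TPM. Ratios covered genes that averaged 10 counts or more. With 2 libraries of 1 group no test was made. The 95% intervals of ratios are exact, based on Poisson counts, and cover counting error only. Shared 31-base words were counted over annotated transcripts, and the ratio script was tested on simulated data. DESeq2 1.42.0 size factors and the other quantification were among the alternatives.

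The members, lists and motifs were chosen with earlier results of these data known, and the division into subunit roles was made after seeing the data. Named genes are, in each complex, the 4 highest and 2 lowest detected, the members not detected or past 2-fold, the 6 with the highest retained-intron share, the 6 that differ most between quantifications, and genes of the isoform groups. Others (among them Cyc1, Ndufa5, Ndufs7, Ndufv2 and the head-to-head pairs) were chosen after their values were seen. Some genes that this rule names are not reported here.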

Additional observations from a re-analysis of the deposited data

How the results depend on the processing

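With 2 libraries of unequal depth, counts under about 100 give wide intervals, and the common biological coefficient of variation from edgeR, over 15439 genes, was 0.225. No paired analysis was possible because the series holds 1 group. The number of detected members was 76 in the other quantification, 64 at a TPM of at least 5, 78 at a TPM of at least 0.1 and 77 to 78 when either replicate was left out. It was 43 among members that share under 10% of their 31-base words, an alternative chosen after seeing the data, which leaves fewer genes. The median TPM, 9.18, was 5.45 in the other quantification, 43.6 when scaled over protein-coding genes, 10.2 over detected members, 8.42 over members with few shared words, and 8.91 to 9.45 when a replicate was left out. The median ratio, −0.31, was −0.15 with total counts, −0.053 in TPM, −0.28 with no count filter, −0.25 in the other quantification, −0.28 over members with few shared words and −0.25 in TPM relative to protein-coding genes (the last 2 chosen after seeing the data). Total counts alone put the median of protein-coding genes at 0.17. Members past 2-fold, 2 in number, were 0 in TPM with 0.5 added and 5 with no count filter. They were 1 at a mean count of at least 50 and 1 in relative TPM. The median retained-intron share, 22.7%, was 20.02% as a share of counts, 26.7% in the other quantification, and 20.6% to 23.1% when a replicate was left out. In the other quantification the TPM of 69 of the 77 detected members moved by more than the spread between replicates. The median TPM of the members was lower there, while their median log2 ratio of CPM was 0.06. This count therefore does not separate a shift of the whole TPM scale from differences of single genes. DESeq2 size factors, a pseudocount of 5 or a minimum of 50 counts gave medians of −0.29 to −0.31 and 2 members past 2-fold with DESeq2. The causes were not tested.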

Other observations

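Other genes of mitochondrial function were set beside the subunit genes as lists. The 13 mitochondrially encoded subunits, all detected, had medians of 895 TPM in replicate 1 and 1560 TPM in replicate 2, and their median log2 ratio of replicate 2 over replicate 1 was 0.62, with 10 above 0 and 3 below. The nuclear-encoded members had a median of −0.31, so the medians of the 2 genomes lay on opposite sides of 0. mt-Co1, the catalytic subunit of complex IV, had 6864 and 7613 TPM on 361911 and 279616 counts. mt-Atp8, a small subunit of ATP synthase, had 2684 and 9865 TPM on only 2613 and 5240 counts. Mitochondrial RNA in a nuclear fraction was not tested as a measure of purity. The 13 genes of the TCA cycle, all detected, had medians of 10.01 and 12.9 TPM and a median ratio of 0.16, with 10 of 13 above 0. They were led by Dlst, of the 2-oxoglutarate dehydrogenase complex, at 27.6 and 32.4 TPM.

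Assembly factors of the complexes were lower than the subunits, with 38 of 46 detected and medians of 3.55 and 3.77 TPM. They were led by Coa5 (25.5 and 21.6 TPM) and Cox17, a copper chaperone (27.9 and 17.5 TPM). Mitochondrial ribosomal proteins were detected for 76 of 78 genes at medians of 4.20 and 4.18 TPM, led by Mrpl24 (41.7 and 55.8 TPM) and Mrps21 (15.1 and 18.5 TPM). Cytosolic ribosomal proteins, also short, were detected for 76 of 79 genes at medians of 26.2 and 25.1 TPM, led by Rps24 and Rpl41. Their median ratio was −0.23, with 65 genes below 0 and 11 above. For mitochondrial ribosomal proteins the median ratio was −0.13, with 56 below 0 and 22 above. Of 13 regulators of respiratory gene transcription 12 were detected, led by Esrra (16.6 and 14.8 TPM) and Pprc1 (12.0 and 12.6 TPM), while Ppargc1a, a coactivator known from muscle and brown fat, was at 0 counts. Nrf1 had 6.31 and 9.13 TPM, Gabpa 5.01 and 6.81 TPM and Yy1 6.81 and 8.48 TPM, named here because the promoter cores belong to them.

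Genes of respiration that the choice by symbol leaves out had levels within the range of the detected members, except one. Ndufab1, the acyl carrier protein of complex I, had 15.4 TPM in both libraries, Cycs, cytochrome c, 7.83 and 7.86 TPM, and Atpif1, the inhibitor of ATP synthase, 26.2 and 38.9 TPM. Cyct, the testis cytochrome c, had 0 counts. Added after seeing the data, Usmg5, a small subunit of ATP synthase, had 12.9 and 22.4 TPM.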
